A study of Mus musculus with 8 samples.

Results

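The 10 genes described here encode the kinases that drive entry into and passage through mitosis and the proteins of the spindle assembly checkpoint. They are the kinases Cdk1, Mastl, Plk1, Aurka, Aurkb and Nek2 and the checkpoint genes Bub1, Bub1b, Ttk and Mad2l1. They were chosen by name from the 55421 genes of the deposited count table, and the rule uses none of their measured values, although earlier results of these data were known when the genes were picked. RNA was sequenced in bulk in 8 libraries of B cells enriched from spleens of C57BL/6 mice, aged 8 to 10 weeks, at day 10 after immunization, with magnetic beads that carry peanut agglutinin (PNA), a lectin that binds germinal centre B cells. The 4 groups, of 2 libraries each, were Smarca4+/- CC, Smarca4+/+ CC, Smarca4+/- CB and Smarca4+/+ CB. CC and CB are read here as centrocytes and centroblasts. All groups shared the strain, the organ, the immunization and the bead kit. Smarca4+/- cells carry 1 intact copy of Smarca4, the ATPase of SWI/SNF chromatin remodelling complexes, where Smarca4+/+ cells carry both. The labels do not say how CC and CB were separated, in which cells the allele was lost and by what driver, or whether replicates were different mice, so p-values speak of differences among these libraries, and those may be technical.

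Cells enter mitosis when cyclin B activates CDK1, helped by Aurora A (Aurka) and PLK1, while MASTL, known as Greatwall, restrains the phosphatase that opposes CDK1. The spindle assembly checkpoint (TTK, BUB1, BUBR1 encoded by Bub1b, and MAD2 encoded by Mad2l1) holds the anaphase promoting complex inactive until every chromosome is attached to the spindle, and Aurora B (Aurkb) corrects wrong attachments. In the germinal centre, centroblasts of the dark zone divide rapidly and centrocytes of the light zone mostly do not, and transcripts of these genes peak in G2 and M phase.

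Total counts were 676852 and 837558 in Smarca4+/- CC and 526353 and 589802 in Smarca4+/+ CC. They were 18357578 and 22929995 in Smarca4+/- CB and 20325562 and 24341805 in Smarca4+/+ CB, so mean totals were 32.7 times as high in CB as in CC. Levels below are CPM (counts scaled to a common library total, after TMM scaling). A floor of 3 counts stood at 3.56 to 5.36 CPM in the CC libraries and 0.140 to 0.158 CPM in the CB libraries, and it covers counting error only. Low counts were mostly even: of counts from 1 to 50, 80.3% to 90.2% were even in CC and 72.5% to 79.4% in CB, so a count of 2 may be 1 fragment. Smarca4 stood at 244 and 311 CPM in Smarca4+/- CC against 322 and 316 CPM in Smarca4+/+ CC, and at 734 and 702 CPM in Smarca4+/- CB against 897 and 1002 CPM in Smarca4+/+ CB. Its genotype difference passed the test in neither fraction (edgeR log2 difference -0.20, adjusted p = 0.607 in CC, and -0.40, adjusted p = 1 in CB). Markers of the labelled cell types were read from lists. Summed pan-B markers were 4252 to 5576 CPM in CC and 5262 to 6159 CPM in CB. Summed germinal centre B cell markers were 824 to 1340 CPM in CC and 1739 to 1843 CPM in CB. Averaged over genotypes, 3 of 7 germinal centre genes were lower in CC (6.96% of all genes tested were) and 0 higher. In the same comparison the dark zone list had 6 of 6 lower, and the light zone list had 8 of 10 genes higher (6.6% of all genes). Markers of macrophages, T cells and erythroid cells were also higher in CC, with 10 of 10 macrophage genes, 9 of 10 T cell genes and 7 of 7 tested erythroid genes past the test. The library Smarca4+/- CC replicate 2 stood apart within CC: its summed macrophage markers were 1467 CPM, against 2817 to 3292 CPM in the other CC libraries, and its erythroid markers 126 CPM against 446 to 755 CPM. For the comparisons that use it, the count of members past a threshold, the median or both are also given without it.

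Promoters are shown because most members were lower in CC, as described further on. Of the 10 genes, 9 had a promoter in RefSeq (build GRCm38.p6, 250 bases before to 50 bases after the annotated start), and Aurkb had none there. Many G2/M promoters are known for a cell cycle homology region, of the form TTTGAA or TTCGAA, bound by the DREAM and MYB-MuvB complexes, next to CCAAT boxes bound by NF-Y. These 3 strings were searched on both strands, and no hits overlapped. Capitals mark the matches, and lower case the rest. Aurka and Bub1 are printed for the widest differences between fractions, Plk1 for the layout it shares with Aurka, Cdk1 for its 2 matches to TTTGAA, and Nek2 and Mastl for having neither form. Mad2l1, not printed, also had neither form.
Aurka (GRCm38.p6, chr2:172370521-172370820, minus strand): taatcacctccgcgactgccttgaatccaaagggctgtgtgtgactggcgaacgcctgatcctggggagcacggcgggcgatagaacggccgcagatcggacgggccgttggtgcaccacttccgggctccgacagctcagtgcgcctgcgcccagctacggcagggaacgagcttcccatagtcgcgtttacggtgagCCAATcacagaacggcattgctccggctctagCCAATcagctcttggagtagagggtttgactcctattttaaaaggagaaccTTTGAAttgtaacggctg
Bub1 (GRCm38.p6, chr2:127831810-127832109, minus strand): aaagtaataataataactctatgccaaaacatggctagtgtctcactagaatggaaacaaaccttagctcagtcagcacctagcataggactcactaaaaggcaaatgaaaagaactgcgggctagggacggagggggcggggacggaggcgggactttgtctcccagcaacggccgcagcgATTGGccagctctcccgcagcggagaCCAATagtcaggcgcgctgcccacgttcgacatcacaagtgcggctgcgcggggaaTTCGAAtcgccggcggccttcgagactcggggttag
Plk1 (GRCm38.p6, chr7:122159185-122159484, plus strand): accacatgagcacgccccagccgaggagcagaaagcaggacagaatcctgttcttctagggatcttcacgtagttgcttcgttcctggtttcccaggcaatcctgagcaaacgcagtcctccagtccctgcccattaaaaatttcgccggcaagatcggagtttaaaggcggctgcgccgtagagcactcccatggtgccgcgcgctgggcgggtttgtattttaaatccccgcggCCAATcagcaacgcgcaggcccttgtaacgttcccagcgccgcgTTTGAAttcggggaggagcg
Cdk1 (GRCm38.p6, chr10:69352863-69353162, minus strand): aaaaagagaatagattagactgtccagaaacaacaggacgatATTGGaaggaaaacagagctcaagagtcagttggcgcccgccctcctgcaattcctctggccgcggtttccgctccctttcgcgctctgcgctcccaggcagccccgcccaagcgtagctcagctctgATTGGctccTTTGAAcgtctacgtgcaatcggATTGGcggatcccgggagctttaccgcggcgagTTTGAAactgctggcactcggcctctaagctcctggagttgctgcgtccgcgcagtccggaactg
Nek2 (GRCm38.p6, chr1:191821223-191821522, plus strand): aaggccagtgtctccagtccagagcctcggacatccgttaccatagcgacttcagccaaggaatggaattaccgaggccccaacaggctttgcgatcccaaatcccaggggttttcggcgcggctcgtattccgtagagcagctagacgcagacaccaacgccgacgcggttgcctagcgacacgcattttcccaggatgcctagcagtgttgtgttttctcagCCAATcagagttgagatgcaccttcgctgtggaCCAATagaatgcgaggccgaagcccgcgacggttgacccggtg
Mastl (GRCm38.p6, chr2:23155975-23156274, minus strand): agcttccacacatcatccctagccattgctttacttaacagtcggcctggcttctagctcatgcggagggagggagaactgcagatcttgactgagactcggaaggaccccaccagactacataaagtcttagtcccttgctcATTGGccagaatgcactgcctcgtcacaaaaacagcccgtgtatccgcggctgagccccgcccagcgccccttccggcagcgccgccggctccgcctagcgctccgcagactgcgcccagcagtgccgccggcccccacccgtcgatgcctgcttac

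With the annotated start as position 1, TTTGAA began at position 33 in Aurka, 31 in Plk1 and 41 in Bub1b, at position 8 on the minus strand in Ttk, and at -71 and -15 in Cdk1. TTCGAA, which reads the same on both strands, began at 15 in Bub1 and at -188 in Bub1b. In all, 6 of 9 member promoters held either form, against 19.2% of 32851 promoters of the same length. CCAAT was found in 8 of 9 (Mad2l1 was without it), against 37.4% of all promoters. The Mad2l1 window (chr6:66534971-66535270) ended before the counted gene began, at 66535390, so its lack of matches may depend on the start used. The strings TTTGAA and TTCGAA alone were in 17.9% and 1.56% of all promoters. These are matches of letters, and binding was not measured. The strings were picked as known elements of G2/M promoters, so the shares are not a test of the members.

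Levels were first compared between members per length of exon, in CPM per kilobase (CPM/kb). The length is that of the gene's exons in the deposited table (8390 bases for Mad2l1). The transcripts the cells used may be shorter, so the order between genes depends on the annotation. In CB the order was the same in both genotypes. In Smarca4+/- CB it ran from Plk1 (75.5 ± 4.25 CPM/kb, SD, n = 2) over Bub1b at 59.2, Aurkb at 54.4 and Nek2 at 44.1 to Aurka at 21.7, Cdk1 at 18.9, Bub1 at 17.9, Mad2l1 at 13.7, Ttk at 10.6 and Mastl at 4.80 CPM/kb. In Smarca4+/+ CB it ran from Plk1 at 65.6 over Bub1b at 56.3, Aurkb at 43.4, Nek2 at 38.2 and Aurka at 22.2 to Cdk1 at 15.7, Bub1 at 14.1, Mad2l1 at 10.7, Ttk at 6.72 and Mastl at 3.97 CPM/kb. Neighbours whose libraries overlapped were Bub1b with Aurkb and Cdk1 with Bub1 in Smarca4+/- CB, and Plk1 with Bub1b, Aurkb with Nek2 and Cdk1 with Bub1 in Smarca4+/+ CB. The mitotic kinases Plk1, Aurkb and Nek2 and the checkpoint gene Bub1b thus had the highest levels per length in centroblasts, and Mastl the lowest.

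In CC the order was looser. In Smarca4+/- CC the means ran from Plk1 at 35.3, Aurkb at 30.7 and Bub1b at 30.4 over Nek2 at 15.6, Aurka at 11.1, Cdk1 at 7.54, Mad2l1 at 6.59, Bub1 at 5.16 and Ttk at 5.09 to Mastl at 4.003 CPM/kb, and of neighbours only Aurka and Cdk1 were apart in both libraries. In Smarca4+/+ CC Bub1b led at 23.8, ahead of Aurkb at 13.4, Plk1 at 13.0, Cdk1 at 4.98, Nek2 at 4.44, Ttk at 2.06, Mastl at 1.75, Mad2l1 at 1.60, Aurka at 1.35 and Bub1 at 1.16 CPM/kb. There only Bub1b and Aurkb, and Plk1 and Cdk1, did not overlap. Aurka and Bub1 were thus at the low end of the order in Smarca4+/+ CC, where Aurka had 2 and 2 counts and Bub1 2 and 4 counts.

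**Figure D1:**
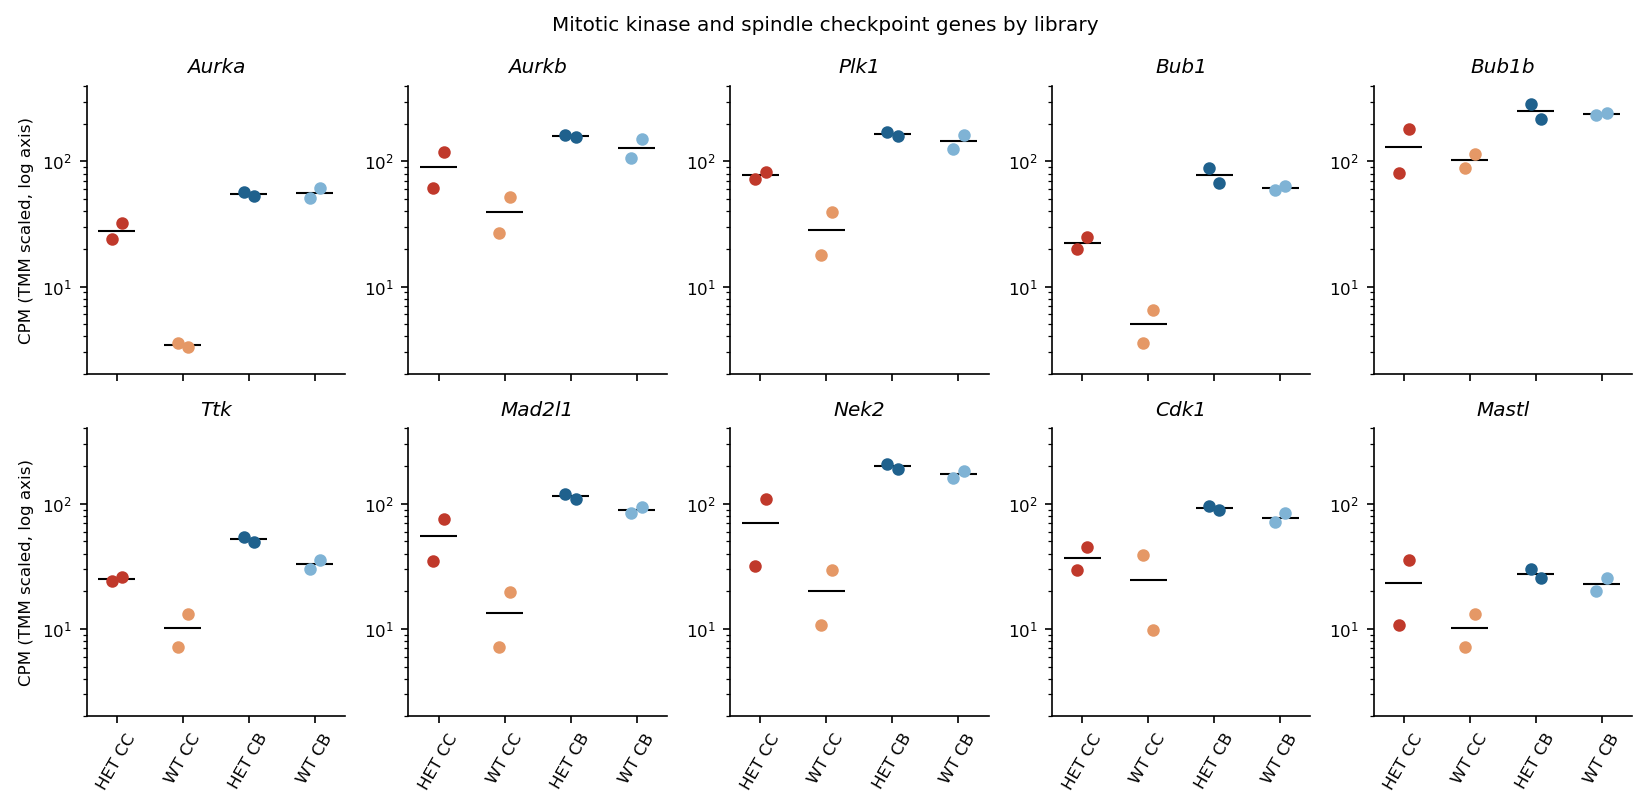
Level of each of the 10 genes in CPM (log axis) in every library, with groups from left to right Smarca4+/- CC, Smarca4+/+ CC, Smarca4+/- CB and Smarca4+/+ CB; each point is 1 library and the bar is the mean of 2. Aurka lies at 24.0 and 32.0 CPM in Smarca4+/- CC, at 3.57 and 3.27 CPM in Smarca4+/+ CC and between 50.8 and 61.8 CPM in the CB libraries.

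Between fractions, centrocytes were compared with centroblasts of the same genotype. In Smarca4+/- cells 1 of the 10 genes, Bub1, was lower in CC (edgeR quasi-likelihood test, Benjamini-Hochberg adjusted p under 0.05), while 1.5% of 12997 genes tested were. In 9 of 10, all but Mastl, the CC libraries lay below the CB libraries without overlap, which held for 33.2% of genes. The median log2 difference of the members was -1.05, against -0.08 over all genes. In percentiles of all genes, counted from the lowest difference, members ran from 9.35 (Bub1) to 42.1 (Mastl). Without Smarca4+/- CC replicate 2, 4 of 10 passed in Smarca4+/- cells (Bub1, Bub1b, Mad2l1 and Nek2) and the median was -1.55, while calls of all genes in that direction numbered 445, against 195 with every library. Without Smarca4+/+ CC replicate 1 or 2, 3 of 10 passed there, with 452 or 455 lower genes in all. Without Smarca4+/- CC replicate 1 it was 0 of 10 (16 lower genes in all), without Smarca4+/- CB replicate 1 or 2 it was 0 of 10 with 0 lower genes in all, and without Smarca4+/+ CB replicate 1 or 2 it was 0 of 10 with 63 or 58. The members' count thus moved with that of all genes. In Smarca4+/+ cells 7 of 10 were lower in CC, Aurka, Aurkb, Plk1, Bub1, Bub1b, Mad2l1 and Nek2, against 3.76% of all genes. There all 10 did not overlap in that direction (38.5% of all genes), and the median log2 difference was -2.01, against -0.19 over all genes. Members in Smarca4+/+ cells ran from percentile 13.4 (Aurka) to 23.2 (Mastl), so many genes had lower values than Aurka. Without Smarca4+/- CC replicate 2, 9 of 10 passed in Smarca4+/+ cells (740 lower genes in all, against 489 with every library), and without Smarca4+/+ CB replicate 2, 4 of 10 did (88 in all). In bulk RNA, fewer dividing cells and less RNA per dividing cell cannot be told apart, nor can fraction and depth, since every CC library was shallow.

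Cdk1 (ENSMUSG00000019942.13, mm10 chr10:69335146-69352938, minus strand), whose complex with cyclin B triggers mitosis, stood at 29.4 and 45.1 CPM in Smarca4+/- CC and at 39.3 and 9.81 CPM in Smarca4+/+ CC. In CB it stood at 96.8 and 89.8 CPM in Smarca4+/- cells and at 70.9 and 83.8 CPM in Smarca4+/+ cells. The CC libraries were all below the CB libraries, and of the Smarca4+/+ CC libraries 1 lay between the Smarca4+/- CC libraries and the other below them. Its log2 difference of CC over CB was -1.32 (SE 0.42, edgeR adjusted p = 0.123) in Smarca4+/- cells and -1.68 (SE 0.47, adjusted p = 0.0532) in Smarca4+/+ cells, both short of the threshold.

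Mastl (ENSMUSG00000026779.6, mm10 chr2:23115606-23156024, minus strand), the Greatwall kinase, stood at 10.7 and 35.6 CPM in Smarca4+/- CC, 7.15 and 13.1 CPM in Smarca4+/+ CC, 30.05 and 25.4 CPM in Smarca4+/- CB and 20.2 and 25.6 CPM in Smarca4+/+ CB. It was the 1 member with CC and CB overlapping in Smarca4+/- cells, where Smarca4+/- CC replicate 2 exceeded every CB library. On the log2 scale the difference was -0.24 (SE 0.55, edgeR adjusted p = 0.858) in Smarca4+/- cells and -1.17 (SE 0.65, adjusted p = 0.306) in Smarca4+/+ cells. Without Smarca4+/- CC replicate 1 the first of these was 0.34, of the other sign.

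Plk1 (ENSMUSG00000030867.7, mm10 chr7:122159439-122169873, plus strand), which promotes CDK1 activation, centrosome maturation and cytokinesis, stood at 72.1 and 83.0 CPM in Smarca4+/- CC, 17.9 and 39.2 CPM in Smarca4+/+ CC, 173 and 159 CPM in Smarca4+/- CB and 126 and 163 CPM in Smarca4+/+ CB. The ranges of both CC groups and of CB were apart. In Smarca4+/- cells the log2 difference was -1.10 (SE 0.30, edgeR adjusted p = 0.0696), short of the threshold. In Smarca4+/+ cells Plk1 was lower in CC, with a log2 difference of -2.32 (SE 0.34, adjusted p = 0.00328). Exons of Plk1 share 156 bases, 7.09% of their length, with the antisense predicted gene Gm44985, and the strand setting of the counting is not given in the sources used here.

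Aurka (ENSMUSG00000027496.15, mm10 chr2:172356190-172370535, minus strand), the Aurora A kinase of centrosome and spindle assembly, had the widest difference in Smarca4+/+ cells. It stood at 24.0 and 32.0 CPM in Smarca4+/- CC, 3.57 and 3.27 CPM in Smarca4+/+ CC, 57.2 and 52.5 CPM in Smarca4+/- CB and 50.8 and 61.8 CPM in Smarca4+/+ CB. Both Smarca4+/+ CC values lay under the 3 count floor, below all other libraries. The log2 difference was -0.96 (SE 0.35, edgeR adjusted p = 0.177) in Smarca4+/- cells and -4.04 (SE 0.53, adjusted p = 0.00206) in Smarca4+/+ cells. From the counts alone, 4 in Smarca4+/+ CC against 2324 in Smarca4+/+ CB, the ratio of levels was 0.0604 with an exact 95% interval of 0.0164 to 0.155, and 0.0073 to 0.219 if each pair of counts is 1 fragment.

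Nek2 (ENSMUSG00000026622.15, mm10 chr1:191821444-191833050, plus strand), a kinase that loosens the link between centrosomes, stood at 32.0 and 109 CPM in Smarca4+/- CC, 10.7 and 29.4 CPM in Smarca4+/+ CC, 208 and 190.2 CPM in Smarca4+/- CB and 162 and 183 CPM in Smarca4+/+ CB. Its Smarca4+/- CC libraries lay far apart, the higher being replicate 2, and all CC values were below all CB values. CC over CB was -1.48 on the log2 scale (SE 0.44, edgeR adjusted p = 0.0936) in Smarca4+/- cells and -3.08 (SE 0.53, adjusted p = 0.00683) in Smarca4+/+ cells. Nek2 shares 298 exon bases (6.60%) with the antisense predicted gene Gm38037. Aurkb (ENSMUSG00000020897.12, mm10 chr11:69045647-69051664, plus strand), the kinase of the chromosomal passenger complex, stood at 61.4 and 119.7 CPM in Smarca4+/- CC, 26.8 and 52.3 CPM in Smarca4+/+ CC, 163 and 157 CPM in Smarca4+/- CB and 105 and 150.4 CPM in Smarca4+/+ CB. Within each genotype CC was below CB, but Smarca4+/- CC replicate 2 lay above Smarca4+/+ CB replicate 1. The log2 difference was -0.82 (SE 0.35, edgeR adjusted p = 0.242) in Smarca4+/- cells and -1.68 (SE 0.39, adjusted p = 0.0263) in Smarca4+/+ cells.

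Of the checkpoint genes, Bub1 was the one lower in CC in both genotypes. BUB1 binds kinetochores, the protein sites on chromosomes where spindle fibres attach, and marks inner centromeres for Aurora B. Bub1 (ENSMUSG00000027379.13, mm10 chr2:127801122-127831865, minus strand) stood at 20.03 and 24.9 CPM in Smarca4+/- CC, 3.57 and 6.54 CPM in Smarca4+/+ CC, 88.8 and 67.2 CPM in Smarca4+/- CB and 58.9 and 63.8 CPM in Smarca4+/+ CB. All 4 CC libraries were below all CB libraries, with Smarca4+/+ CC the lowest. The log2 difference was -1.79 (SE 0.36, edgeR adjusted p = 0.0212) in Smarca4+/- cells and -3.58 (SE 0.49, adjusted p = 0.00222) in Smarca4+/+ cells. The Smarca4+/+ CC level rests on 6 counts, and the ratio of counts to Smarca4+/+ CB was 0.0833 with an exact 95% interval of 0.0306 to 0.182.

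Mad2l1 (ENSMUSG00000029910.14, mm10 chr6:66535390-66547220, plus strand), whose product MAD2 binds the anaphase activator CDC20, stood at 34.7 and 75.9 CPM in Smarca4+/- CC, 7.15 and 19.6 CPM in Smarca4+/+ CC, 119 and 110.1 CPM in Smarca4+/- CB and 84.6 and 94.9 CPM in Smarca4+/+ CB. The 4 CC libraries were again the lowest, with both Smarca4+/+ CC libraries at the bottom. Its log2 difference was -1.04 (SE 0.38, edgeR adjusted p = 0.171) in Smarca4+/- cells and -2.72 (SE 0.48, adjusted p = 0.00738) in Smarca4+/+ cells. Bub1b (ENSMUSG00000040084.9, mm10 chr2:118598211-118641591, plus strand), whose product BUBR1 is part of the complex that inhibits CDC20, stood at 80.1 and 180.2 CPM in Smarca4+/- CC, 89.3 and 114 CPM in Smarca4+/+ CC, 288 and 217 CPM in Smarca4+/- CB and 236 and 245 CPM in Smarca4+/+ CB. Its CC libraries of both genotypes overlapped and were below all CB libraries. On the log2 scale CC differed from CB by -0.95 (SE 0.32, edgeR adjusted p = 0.143) in Smarca4+/- cells and -1.24 (SE 0.33, adjusted p = 0.0471) in Smarca4+/+ cells, just inside the threshold.

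Ttk (ENSMUSG00000038379.15, mm10 chr9:83834689-83872389, plus strand), the MPS1 kinase at the top of the checkpoint, stood at 24.0 and 26.1 CPM in Smarca4+/- CC, 7.15 and 13.1 CPM in Smarca4+/+ CC, 54.3 and 49.8 CPM in Smarca4+/- CB and 30.4 and 35.7 CPM in Smarca4+/+ CB. Here too CC lay below CB without overlap. CC over CB came to a log2 difference of -1.05 (SE 0.39, edgeR adjusted p = 0.180) in Smarca4+/- cells and -1.69 (SE 0.47, adjusted p = 0.0513) in Smarca4+/+ cells, both short of the threshold.

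**Figure D2:**
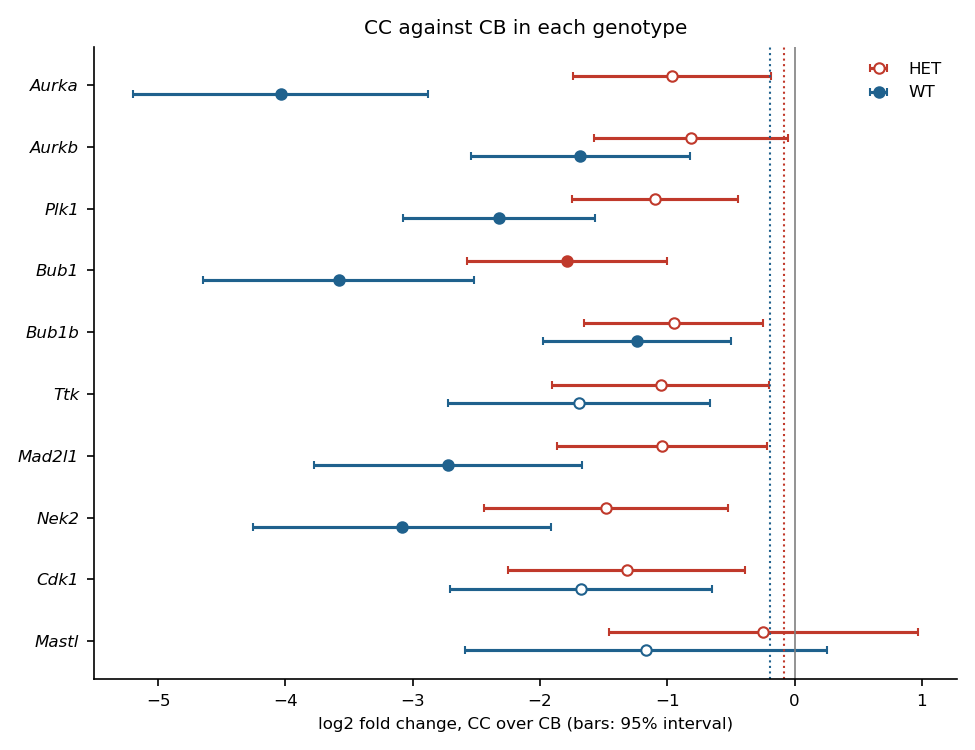
Log2 difference of CC over CB for each member in Smarca4+/- and Smarca4+/+ cells; bars are 95% intervals from the edgeR fit, filled points have an adjusted p under 0.05, and dotted lines are the medians of all genes tested. Aurka is at -0.96 in Smarca4+/- cells and -4.04 in Smarca4+/+ cells, and Mastl is nearest to 0 in both genotypes.

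Averaged over both genotypes, 9 of 10 members were lower in CC, all but Mastl, against 6.96% of genes tested, 5 of 10 were without Smarca4+/- CB replicate 1 (263 lower genes in all, against 905 with every library), 6 of 10 without Smarca4+/+ CB replicate 2 (292 in all), and 9 of 10 without Smarca4+/- CC replicate 2 (1372 in all). Log2 differences ran from -2.69 for Bub1 (SE 0.30, edgeR adjusted p = 0.000282) and -2.50 for Aurka (SE 0.32, adjusted p = 0.000581) to -1.09 for Bub1b (SE 0.23, adjusted p = 0.00985). Between them were Nek2 at -2.28, Mad2l1 at -1.88, Plk1 at -1.71, Cdk1 at -1.50, Ttk at -1.37 and Aurkb at -1.25. Mastl was at -0.71 (SE 0.43, adjusted p = 0.305). In 8 of 10 all CC libraries lay below all CB libraries, Aurkb and Mastl being the exceptions, against 14.8% of all genes.

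The other genes of the pathway were read from lists chosen by function, and none of their tested genes was higher in CC in any of the fraction comparisons (2.17% of all genes were in Smarca4+/- cells and 3.72% in Smarca4+/+ cells). Activators and regulators of the mitotic kinases had 3 of 16 lower in Smarca4+/- cells (against 1.5% of all genes) and 8 of 16 in Smarca4+/+ cells (against 3.76%). Cdc25b, the phosphatase that activates CDK1, was at a log2 difference of -1.78 (SE 0.26, edgeR adjusted p = 0.00489) in Smarca4+/- cells and -2.02 (SE 0.27, adjusted p = 0.0021) in Smarca4+/+ cells. Tpx2, the activator of Aurora A, was at -1.70 (SE 0.28, adjusted p = 0.00859) in Smarca4+/- cells and -1.98 (SE 0.30, adjusted p = 0.0034) in Smarca4+/+ cells. Ccnb2, which encodes cyclin B2, was at -2.41 (SE 0.47, adjusted p = 0.0183) in Smarca4+/- cells and -2.65 (SE 0.53, adjusted p = 0.0144) in Smarca4+/+ cells. All 3 passed in both genotypes.

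Checkpoint partners had 0 of 10 lower in Smarca4+/- cells (3 of 10 at an unadjusted p under 0.05, against 9.36% of all genes). They had 3 of 10 lower in Smarca4+/+ cells (against 3.76% of all genes). There Spdl1, the adaptor that brings dynein to kinetochores, was at a log2 difference of -2.95 (SE 0.54, edgeR adjusted p = 0.00878), Knl1, the scaffold that BUB proteins bind, at -2.19 (SE 0.44, adjusted p = 0.0144), and Cdc20 at -2.43 (SE 0.58, adjusted p = 0.0293). The list median was -0.31 in Smarca4+/- cells and -1.33 in Smarca4+/+ cells. Of genes of the anaphase promoting complex and its substrates, 2 of 22 were lower in Smarca4+/- cells (against 1.5% of all genes) and 3 of 22 in Smarca4+/+ cells (against 3.76%). Espl1, which encodes separase, the protease that opens cohesin, was lower in both, at -1.42 (SE 0.29, adjusted p = 0.0234) in Smarca4+/- cells and -2.78 (SE 0.35, adjusted p = 0.00164) in Smarca4+/+ cells. Of Mastl's branch and the phosphatases, 0 of 10 were lower in Smarca4+/- cells and 1 of 10 in Smarca4+/+ cells (against 3.76% of all genes). The latter was Arpp19, a substrate of MASTL (log2 difference -2.12, SE 0.56, edgeR adjusted p = 0.0436).

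Relatives of the members (Aurora, Polo, NEK and cyclin-dependent kinases, and Mad2l2) did not pass in either genotype (0 of 15 tested in each), with medians of -0.16 in Smarca4+/- cells and -0.46 in Smarca4+/+ cells. Aurkc and Plk5 had too few counts to be tested. Replication genes had 3 of 18 lower in Smarca4+/- cells (against 1.5% of all genes) and 4 of 18 in Smarca4+/+ cells (against 3.76%). Their median was -0.72 in each. Regulators of mitotic transcription had 0 of 21 lower in Smarca4+/- cells and 3 of 21 in Smarca4+/+ cells (against 3.76% of all genes). Foxm1, a transcription factor of G2/M genes, stood at 85.5 and 123 CPM in Smarca4+/- CC, 14.3 and 29.4 CPM in Smarca4+/+ CC, 193 and 214 CPM in Smarca4+/- CB and 181 and 220 CPM in Smarca4+/+ CB. Its level was thus lowest in Smarca4+/+ CC, with a log2 difference of -0.96 (SE 0.28, edgeR adjusted p = 0.0904) in Smarca4+/- cells and -3.18 (SE 0.35, adjusted p = 0.00107) in Smarca4+/+ cells.

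Genotypes were then compared within each fraction, the question being how the members stand in cells with 1 intact Smarca4 copy. In CC all 10 members had a positive log2 difference of Smarca4+/- over Smarca4+/+, with a median of 1.36 against 0.03 over all genes, and none passed the adjusted threshold (0 of 10 by edgeR, where 0 of all genes were called higher and 3, or 0.0231%, lower). In percentiles of all genes, counted from the lowest difference, members ran from 62.8 (Bub1b) to 89.4 (Aurka), so larger differences than Aurka's were present. At an unadjusted p under 0.05, 7 of 10 were higher (Aurka, Aurkb, Plk1, Bub1, Ttk, Mad2l1 and Nek2), against 8.8% of all genes. The Smarca4+/- CC libraries lay above the Smarca4+/+ CC libraries without overlap in 7 of 10 genes, the same ones, against 18.1% of all genes. With limma-voom 0 of 10 passed, and 2 of 10 had an unadjusted p under 0.05. In an edgeR fit to the CC groups alone, 0 of 9 tested members passed, and 4 had such a p. Shares of all genes at that p are not given for these 2 fits. DESeq2 called 4 of the 10 higher, Aurka, Plk1, Bub1 and Mad2l1 (and 465 genes in all higher). This comparison and the fraction comparison in Smarca4+/+ cells use the same 2 Smarca4+/+ CC libraries, the shallowest of the study, so a low value there enters both.

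Aurka differed most, with 18 and 27 counts in Smarca4+/- CC against 2 and 2 counts in Smarca4+/+ CC. Its log2 difference was 3.04 (SE 0.59, edgeR adjusted p = 0.103), with a 95% interval of the fold from 3.36 to 20.03. From the counts alone the ratio was 8.28, with an exact interval of 3.02 to 31.7, or 2.09 to 74.0 with each pair of counts taken as 1 fragment. Bub1 had 15 and 21 counts in Smarca4+/- CC against 2 and 4 counts in Smarca4+/+ CC. Its log2 difference was 2.14 (SE 0.56, adjusted p = 0.154). Mad2l1 had 26 and 64 counts in Smarca4+/- CC against 4 and 12 counts in Smarca4+/+ CC, a log2 difference of 2.03 (SE 0.51, adjusted p = 0.151). These 3 genes had the largest values among the members, on a few counts a library in Smarca4+/+ CC.

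Nek2 followed at 1.81 (SE 0.57, edgeR adjusted p = 0.200), with 24 and 92 counts in Smarca4+/- CC against 6 and 18 counts in Smarca4+/+ CC. Plk1 was at 1.43 (SE 0.37, adjusted p = 0.154), with 54 and 70 counts in Smarca4+/- CC against 10 and 24 counts in Smarca4+/+ CC. Ttk was at 1.30 (SE 0.51, adjusted p = 0.271), with 18 and 22 counts in Smarca4+/- CC against 4 and 8 counts in Smarca4+/+ CC. Totals of the Smarca4+/- CC libraries were also the higher ones, which the CPM scale takes into account and the counts do not.

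Aurkb was at 1.19 (SE 0.41, edgeR adjusted p = 0.221), with 46 and 101 counts in Smarca4+/- CC against 15 and 32 counts in Smarca4+/+ CC. Mastl was at 1.20 (SE 0.69, adjusted p = 0.421), Cdk1 at 0.63 (SE 0.52, adjusted p = 0.559) and Bub1b at 0.36 (SE 0.35, adjusted p = 0.633), and in these 3 genes the CC libraries of both genotypes overlapped. Their 95% intervals of the fold ran from 0.797 to 6.59 for Mastl, 0.700 to 3.42 for Cdk1 and 0.751 to 2.19 for Bub1b, so a fold of 2 lay inside each. Without Smarca4+/- CC replicate 2 the members' median in CC was 0.93, with 4 of 10 higher at an unadjusted p under 0.05 and Bub1b at -0.36. Without Smarca4+/- CC replicate 1 it was 1.69. Without Smarca4+/+ CC replicate 2 it was 1.96 with Cdk1 at -0.08, and without Smarca4+/+ CC replicate 1 it was 1.12.

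In CB no member had an adjusted p under 0.05 between genotypes, by edgeR or by DESeq2 (0 of 10 each). At an unadjusted p under 0.05 edgeR also had 0 of 10, where only 0.285% of all genes were higher. With so few genes at that p in all, 0 of 10 does not show that a difference was absent. At that p, limma-voom and an edgeR fit to the CB groups alone each had 3 of 10 members, and DESeq2 had 1. In these fits too, 0 of 10 passed the adjusted threshold. Shares of all genes at that p are not given for them. Log2 differences of Smarca4+/- over Smarca4+/+ ran from -0.04 for Aurka to 0.66 for Ttk (SE 0.34, edgeR adjusted p = 1), with a median of 0.27. Leaving out replicate 1 of Smarca4+/- CB gave a median of 0.15, and leaving out replicate 2 gave 0.34. Leaving out replicate 1 of Smarca4+/+ CB gave 0.10, and replicate 2 of that group 0.42. In 6 of 10, Aurkb, Bub1, Ttk, Mad2l1, Nek2 and Cdk1, the Smarca4+/- CB libraries lay above the Smarca4+/+ CB libraries without overlap, against 16.2% of all genes. The 95% interval of the fold was 0.609 to 1.56 for Aurka, 0.764 to 1.73 for Plk1 and 0.935 to 2.65 for Ttk. Aurka's sign was not stable: it was 0.04 with total count scaling and 0.03 with pan-B scaling.

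**Figure D3:**
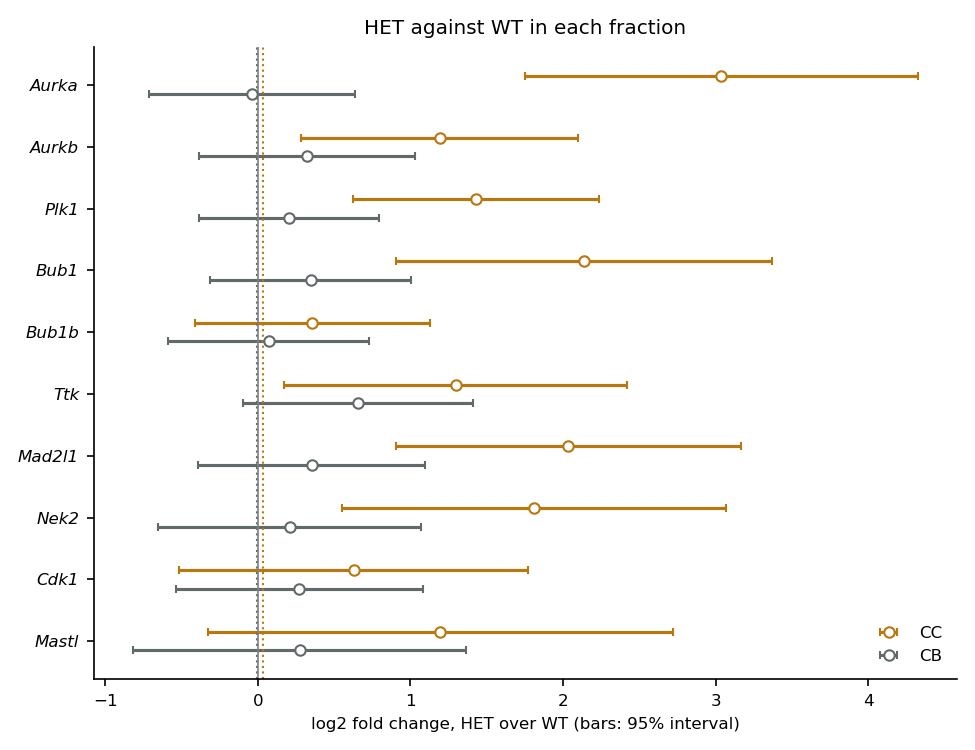
Log2 difference of Smarca4+/- over Smarca4+/+ for each member in CC and in CB; bars are 95% intervals from the edgeR fit, open points have an adjusted p of 0.05 or more, and dotted lines are the medians of all genes tested. All points are open, with Aurka at 3.04 in CC and -0.04 in CB.

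Whether the genotype difference itself differed between fractions was asked with the interaction, the log2 difference of CC over CB in Smarca4+/- cells minus that in Smarca4+/+ cells. It was positive in all 10 members, with a median of 1.08 against 0.10 over all genes, and none passed (0 of 10, as for all genes). Among all genes, members ran from percentile 57.8 (Bub1b) to 88.9 (Aurka), counted from the lowest. At an unadjusted p under 0.05, 5 of 10 were positive, Aurka, Plk1, Bub1, Mad2l1 and Nek2, against 5.56% of all genes. Aurka was at 3.07 (SE 0.68, edgeR adjusted p = 0.419), Bub1 at 1.79 (SE 0.65, adjusted p = 0.458), Mad2l1 at 1.68 (SE 0.62, adjusted p = 0.466), Nek2 at 1.60 (SE 0.70, adjusted p = 0.535) and Plk1 at 1.23 (SE 0.46, adjusted p = 0.467). With limma-voom 0 of 10 passed, and 1 of 10 had an unadjusted p under 0.05. DESeq2 called Aurka (adjusted p = 0.0176) as 1 of 197 genes it called positive. The median was 0.49 without Smarca4+/- CC replicate 2, when 7 of 10 members were positive and 1 of 10 had an unadjusted p under 0.05. With that library kept, the median was 1.67 without Smarca4+/+ CC replicate 2, and the count at an unadjusted p under 0.05 was 2 without Smarca4+/+ CC replicate 1 and 1 without replicate 2 of either CB group. A larger fraction difference in Smarca4+/+ cells than in Smarca4+/- cells was thus not shown by edgeR for any single member. Averaged over fractions, 0 of 10 passed the adjusted threshold by edgeR and by limma-voom. DESeq2 called 5 of 10, and 214 genes higher in all. An unadjusted p under 0.05 was reached by 7 of 10 in edgeR, against 6.01% of all genes, and by 4 of 10 in limma-voom. The genotype difference averaged over fractions was positive in all 10 (edgeR median 0.90). That median was 0.61 without Smarca4+/- CC replicate 2, with 9 of 10 positive and 5 of 10 at an unadjusted p under 0.05.

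Summed over the 10 genes, the level was 389 and 732 CPM in Smarca4+/- CC, 213 and 300.8 CPM in Smarca4+/+ CC, 1279 and 1119 CPM in Smarca4+/- CB and 945 and 1107 CPM in Smarca4+/+ CB. The sum of Mki67 and Top2a, which mark dividing cells of any type, was 2421 and 3430 CPM in Smarca4+/- CC, 1522 and 1468 CPM in Smarca4+/+ CC, 6088 and 4763 CPM in Smarca4+/- CB and 4850 and 5280 CPM in Smarca4+/+ CB. The members were 16.1% and 21.3% of that sum in Smarca4+/- CC, 14.0% and 20.5% in Smarca4+/+ CC, 21.0% and 23.5% in Smarca4+/- CB and 19.5% and 21.0% in Smarca4+/+ CB. The share was lowest in replicate 1 of each CC group, while replicate 2 of each CC group lay inside the range of the CB libraries. Mki67 itself had a log2 difference of CC over CB of -0.92 (SE 0.19, edgeR adjusted p = 0.0224) in Smarca4+/- cells and -1.87 (SE 0.19, adjusted p = 0.000853) in Smarca4+/+ cells, and of Smarca4+/- over Smarca4+/+ in CC of 1.01 (SE 0.19, adjusted p = 0.100). The part of the number of dividing cells in the members' differences was not tested.

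**Figure D4:**
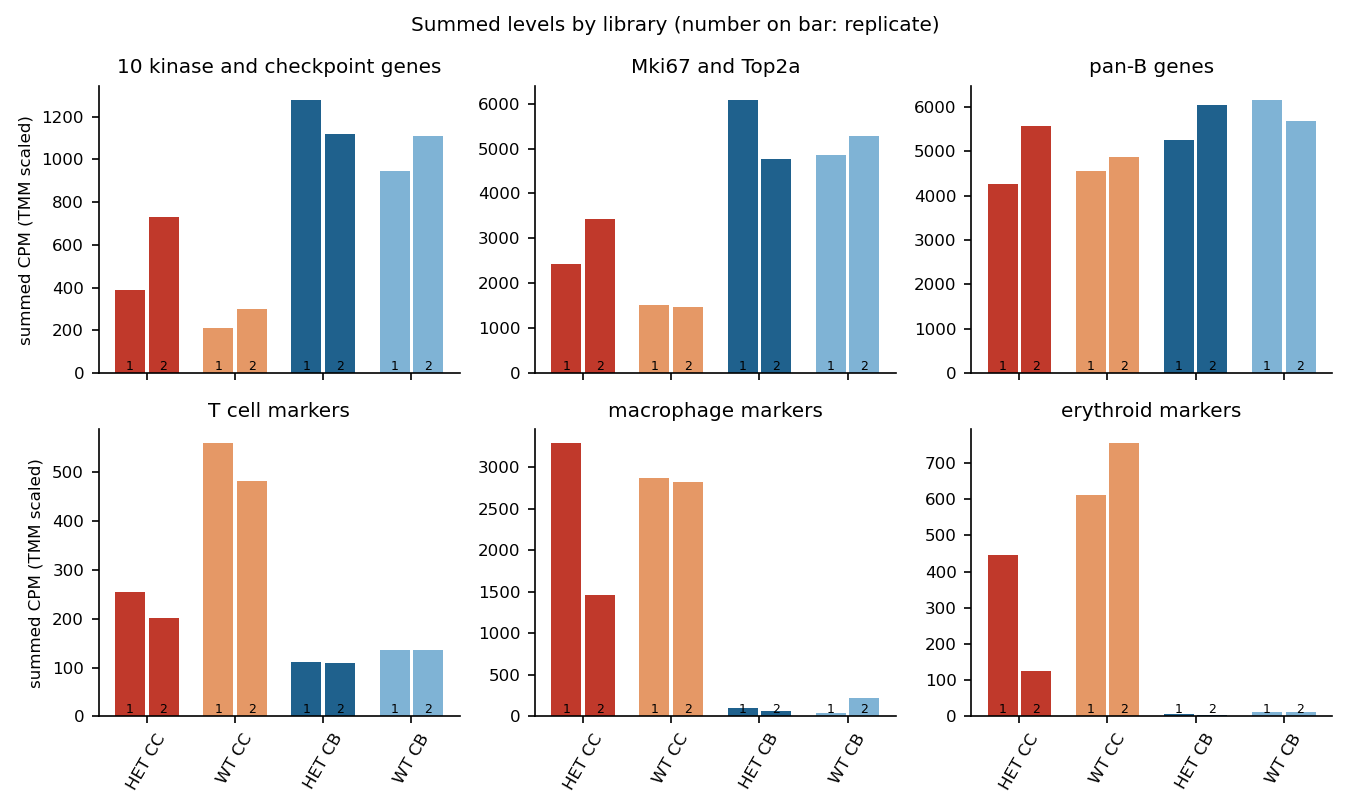
Summed CPM of the 10 members beside the summed CPM of marker lists in each library, ordered Smarca4+/- CC, Smarca4+/+ CC, Smarca4+/- CB, Smarca4+/+ CB. The members sum to 213 to 732 CPM in CC and 945 to 1279 CPM in CB, while macrophage markers sum to 1467 to 3292 CPM in CC and 45.8 to 221 CPM in CB.

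Markers of T cells, macrophages, erythroid cells and naive follicular B cells moved opposite to the members, being higher in CC. T cell markers (10 genes) summed to 254 and 202 CPM in Smarca4+/- CC, 559 and 482 CPM in Smarca4+/+ CC, 112 and 110.2 CPM in Smarca4+/- CB and 137 and 136 CPM in Smarca4+/+ CB. Cd247 and Themis were at 0 in Smarca4+/- CC replicate 2, no T cell marker was at 0 in the other CC libraries, and 2 to 5 were at 0 in each CB library, Cd3e among them in both Smarca4+/+ ones. Macrophage markers (10 genes) summed to 3292 and 1467 CPM in Smarca4+/- CC, 2870 and 2817 CPM in Smarca4+/+ CC, 98.6 and 61.5 CPM in Smarca4+/- CB and 45.8 and 221 CPM in Smarca4+/+ CB. None was at 0 in CC, and Marco was at 0 in 3 CB libraries. Erythroid markers (8 genes) summed to 446 and 126 CPM in Smarca4+/- CC, 611 and 755 CPM in Smarca4+/+ CC, 6.75 and 5.43 CPM in Smarca4+/- CB and 12.8 and 11.8 CPM in Smarca4+/+ CB. Markers of naive follicular B cells (6 genes) summed to 1131 and 765 CPM in Smarca4+/- CC, 1235 and 1203 CPM in Smarca4+/+ CC, 281 and 334 CPM in Smarca4+/- CB and 402 and 321 CPM in Smarca4+/+ CB. In all these lists CC lay above CB in both genotypes. Plasma cell markers (6 genes) did not follow, at 428 to 543 CPM in CC and 473 to 584 CPM in CB. Between genotypes in CC, 0 of 10 T cell, 0 of 10 macrophage and 0 of 7 tested erythroid genes passed (edgeR adjusted p under 0.05; 2, 0 and 2 were lower at an unadjusted p under 0.05, against 6.43% of all genes), with medians of -1.84, -0.29 and -1.05. The Smarca4+/+ CC libraries thus had the lowest summed members and the highest T cell and erythroid sums, and the part of other cells in the members' differences was not tested.

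Among context lists, the genotype comparison in CC had no gene past the threshold. List medians of the log2 difference were 1.06 for checkpoint partners (4 of 10 higher at an edgeR unadjusted p under 0.05) and 0.83 for kinase activators and regulators (5 of 16). They were 0.54 for regulators of mitotic transcription (5 of 21) and 0.37 for the anaphase promoting complex and substrates (5 of 22). Family relatives were at 0.24 (3 of 15 tested), replication genes at 0.14 (3 of 18) and Mastl's branch and the phosphatases at -0.06 (2 of 10). Of all genes, 8.8% were higher at that p. In the replication and Mastl lists 1 gene each was lower. Foxm1 was at 2.24 (SE 0.37, edgeR adjusted p = 0.0948) and Top2a at 0.85 (SE 0.21, adjusted p = 0.151). A difference between lists was not tested.

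The genes whose pattern over the 8 libraries was most like the mean of the members were sought among 8650 genes with at least 5 CPM in each fraction, by the root mean square difference of centred log2 CPM. Kpna2, an importin, was nearest at 0.13, followed by the histone gene Hist1h3e at 0.16, the phosphatase gene Ppm1d at 0.19, the histone gene Hist1h2bb at 0.22 and the histone methyltransferase gene Suv39h1 at 0.23. Kpna2 stood at 25.4 and 54.5 CPM in Smarca4+/- CC, 10.7 and 16.3 CPM in Smarca4+/+ CC, 85.5 and 69.8 CPM in Smarca4+/- CB and 58.6 and 87.5 CPM in Smarca4+/+ CB. The members' own distances from their mean ran from 0.22 for Plk1 to 0.69 for Cdk1. Histone genes share sequence with close copies, so their counts are uncertain.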

How the data were processed

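RNA of 8 libraries was measured, 2 for each genotype and fraction, after ribosomal RNA was removed from total RNA. Ribosomal RNA genes still held 17.5% to 31.2% of counts. Genes of the mitochondrial genome held 2.24% to 5.86% of counts in CC and 0.699% to 1.40% in CB. Of the CC libraries, Smarca4+/- CC replicate 2 had the highest ribosomal share (26.8%) and the lowest mitochondrial share (2.24%). The deposited table holds raw counts per gene, which the authors made with STAR, featureCounts and Subread on mm10, with FastQC and R 4.2.1, per the submitters' processing notes. The other unit in the deposited table is gene length in bases. Tool versions, the strand setting and the handling of multi-mapping reads are not given in the sources used. All 8 count columns matched a sample's labels. Of 55421 identifiers, 55154 had a symbol in GENCODE M21.

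Low genes were dropped with edgeR's filterByExpr (count of 10, total of 15), and the 12997 genes left included all 10 members. edgeR 4.0.16 (R 4.3.3) was used with TMM factors and its quasi-likelihood F test. All 8 libraries entered 1 fit with 4 group means and 4 residual degrees of freedom. The 7 comparisons were tested 2-sided, with Benjamini-Hochberg adjustment over all genes tested at 0.05. Standard errors (SE) were derived from log2 fold and F, and SDs have n = 2. Ratios of summed counts have exact conditional binomial intervals at 95%. The fit was also run on simulated counts, and the outcome is not given here. Those counts held neither the excess of even values nor the marker differences of the CC libraries, so nothing is concluded from them.

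The members and lists were chosen with earlier results of these data known. All members are named, up to 4 called genes of each context list per comparison, the 5 genes most like the members, and fixed genes such as Foxm1 and Mki67. Replicate numbers were not used to pair the samples in the main fit. Alternatives were DESeq2 1.42.0, limma-voom (limma 3.58.1), other scalings and filters, thinning of CB to 657641 counts, a replicate block, a fit to the compared groups alone, and leaving out single libraries. Counts divided by 2, because of the even counts, were added after the data were seen.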

Additional observations from a re-analysis of the deposited data

How the results depend on the processing

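The number of members lower in CC in Smarca4+/- cells, 1 of 10 in the reported fit (195 lower genes in all), was the least stable. It was 3 with DESeq2 (520 genes in all), 0 with limma-voom (57), 0 with pan-B scaling (58), 5 with no low count filter (472), 0 with CB thinned to CC depth (92), 6 with counts divided by 2 (373), and 0 to 4 with a library left out (0 to 455). In Smarca4+/+ cells 7 (489 in all) became 4 with limma-voom (169), 4 with only the groups compared (124), and 4 to 9 with a library left out (88 to 751). Averaged over genotypes 9 (905 in all) became 5 to 9 with a library left out (263 to 1372). With CB thinned, 7 of 10 passed in Smarca4+/+ cells (272 in all) and 8 of 10 averaged (448). For genotype in CC, 0 became 4 with DESeq2 (465 higher genes in all), 4 with no low count filter (211) and 0 with each library left out. Averaged over fractions 0 became 5 with DESeq2 (214) and 2 with no low count filter (79), and the interaction's 0 became 1 with DESeq2 (197). Over all genes, the genotype comparison in CC ranged from 0 to 465 higher and 0 to 381 lower, both highest with DESeq2, against 0 and 3. The causes were not tested.

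Equal replicate numbers did not deviate together (correlations of -0.06 to 0.05). With 2 libraries a group and shallow CC libraries this cannot exclude a pairing, and the labels do not say whether there was one. With a replicate block, 2 members were lower in CC in Smarca4+/- cells (194 lower genes in all), and 5 with the block within genotype (294 in all). With the block 7 were lower in Smarca4+/+ cells (433 in all) and 9 averaged (807 in all). It gave 0 members in the genotype comparisons, with at most 1 higher and 3 lower genes in all.

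Signs turned in single members with small values. Mastl for CC over CB in Smarca4+/- cells was 0.18 with CB thinned and 0.34 at the highest with a library left out (lowest -1.40). Aurka for genotype in CB was 0.043 with total count scaling, 0.030 with pan-B scaling and -0.18 to 0.12 with a library left out. With a library left out, Bub1b ranged from -0.15 to 0.26 for genotype in CB, from -0.36 to 0.81 in CC, and from -0.14 to 0.44 averaged, and Cdk1 from -0.076 to 1.92 in CC. The interaction then ranged from -0.44 to 0.74 for Bub1b, -0.35 to 1.65 for Cdk1 and -0.23 to 1.52 for Mastl. Scaling moved the median of all genes for CC over CB in Smarca4+/+ cells: -0.19 with TMM, -0.07 with RLE, -0.00 with total counts and 0.13 with pan-B genes, while the members' median stayed between -2.01 and -1.70. Depth limits CC: Smarca4+/+ CC held 2 to 70 counts of a member per library.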
